A study of Mus musculus with 21 samples.

Results

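Undifferentiated mouse stem cells of 2 kinds were compared here, 3 cultures of an induced pluripotent stem (iPS) cell line against 3 cultures of an embryonic stem (ES) cell line. They are 6 of the 21 arrays of a study that followed both lines from the undifferentiated state to cardiomyocytes, and they were chosen by their labelled source. The iPS line was αPIG TiB7.4 at passages 5, 7 and 8, and the ES line was αPIG D3 at passages 7, 9 and 10. Both carry the αPIG construct, whose puromycin resistance and green fluorescent protein are under the alpha-MHC promoter and so are made in cardiomyocytes. Both were grown with LIF on neomycin-resistant mouse embryonic fibroblast feeders inactivated with mitomycin C. Each cell type is thus a single line, so a difference between iPS and ES cells cannot be told apart from a difference between these lines. Cultures of the same lines on day 16 of differentiation served to read the same probes again: whole embryoid bodies (EB, spontaneously differentiating aggregates) and cardiomyocytes (CM, selected with 8 µg/ml puromycin), 3 arrays per line and stage. Tail tip fibroblasts from mice aged 8 weeks gave the fibroblast level of a probe on 3 arrays. The series' design text calls these arrays technical replicates, while their labels give passages 2, 3 and 4, so what separates them is not settled. No test below uses them.

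Mouse ES cells come from the inner cell mass of the blastocyst, and iPS cells are made from somatic cells by forced expression of reprogramming factors. Both depend on a network of transcription factors around Pou5f1, Nanog and Sox2. In the naive state that LIF sustains, factors such as Klf2, Zfp42 and Esrrb are high. When pluripotent cells move towards the post-implantation epiblast, Fgf5, Pou3f1 and Dnmt3b rise, and Nodal, Fgf8, Eomes, Lhx1 and Gsc mark the epiblast and primitive streak.

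Single-channel Illumina bead arrays of 45281 probes measured RNA abundance as intensity. Values below are background-corrected, quantile-normalised log2 intensities, and each difference is iPS minus ES, so 1 is a 2-fold difference and a positive value means higher in iPS cells. The test covered the 15520 probes that were detected (detection p below 0.01) by 3 or more of the 6 arrays. Detected probes numbered 15657, 15884 and 15560 on the iPS arrays, against 16607, 13593 and 13231 on the ES arrays. The means were 15700 ± 166 in iPS cells and 14477 ± 1853 in ES cells (SD, n = 3 each). Their difference did not pass a two-sided exact permutation test (p = 0.4, where 3 against 3 arrays cannot give less than 0.1). The ES 1 array stood apart by its high count. Without it the difference was 2288 (exact permutation p = 0.1). The iPS 1 array stood apart by fibroblast genes. The mean level of 12 feeder and fibroblast genes was 7.74, 6.58 and 6.61 on the iPS arrays, against 6.15, 6.48 and 6.17 on the ES arrays.

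The identity of both cell types was checked first. Pou5f1, the core pluripotency factor, had 11.01, 10.75 and 10.56 in iPS cells, against 10.41, 10.59 and 10.29 in ES cells, and averaged 4.19 in fibroblasts. Nanog had 10.78, 10.94 and 10.96 in iPS cells, against 11.08, 10.48 and 10.57 in ES cells. Values of both lines overlapped for both genes and lay far above fibroblasts. Of 5 cardiac markers with a probe, Myh7 and Nkx2-5 were detected on none of the 6 arrays and Myl7 on 1 ES array. Actc1 was detected on all 3 iPS arrays and no ES array and was called higher in iPS cells, at least 1.16-fold (limma adjusted p = 0.04). Myh6 was detected on 1 iPS array and on all 3 ES arrays and was called lower by limma, with -0.67 ± 0.17 (SE, adjusted p = 0.027). Actc1 and Myh6 were at most 5.29 and 5.45 on these arrays, and averaged 13.91 and 12.90 in iPS CM. Without the iPS 1 array both missed the threshold, Actc1 at 0.51 (limma adjusted p = 0.12) and Myh6 at -0.58 (adjusted p = 0.087). The 4 endoderm markers Afp, Alb, Ttr and Apoa1 were not detected. Myc, one of the classical reprogramming factors, was not detected on any of the 6 arrays.

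Across all tested probes, 2757 of 15520 (17.8%) differed between the lines at an adjusted p below 0.05 in limma. Of these, 1342 (8.65%) were higher and 1415 (9.12%) lower in iPS cells, and the median difference of all tested probes was 0.02. With median scaling in place of quantile normalisation, 164 probes passed, 137 higher and 27 lower, and the median of all tested probes moved to 0.18. A difference of 2-fold or more was found for 471 probes higher (3.03%) and 357 lower (2.3%), and one of 4-fold or more for 67 higher and 22 lower. The groups did not overlap at 5738 probes (37%), among them all 1342 called higher and 1413 of the 1415 called lower. With passage number as a covariate 814 probes passed, and leaving out the iPS 1 array left 1720, the iPS 2 array 1397, the iPS 3 array 1297 and the ES 3 array 1573.

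The probe with the largest rise belonged to Olig1, a transcription factor known from oligodendrocyte development. It had 9.74, 9.36 and 9.51 in iPS cells, against 5.03, 4.43 and 4.76 in ES cells, where it was detected on 1 of 3 arrays. The difference was 4.80 ± 0.19 (SE, n = 3 each, limma adjusted p = 3.3e-06). Fgf8, a secreted growth factor of the epiblast and streak, had 9.06, 8.17 and 8.30 in iPS cells, against 4.44, 4.42 and 4.51 in ES cells. It was not detected on any ES array and was at least 12.6-fold higher in iPS cells (limma adjusted p = 3e-05). This bound sets the iPS mean against the lowest level detected on the ES arrays. Fgf5, the growth factor that marks the early post-implantation epiblast, had 9.36, 8.76 and 8.66 in iPS cells, against 4.74, 5.10 and 5.01 in ES cells. Its difference was 3.98 ± 0.21 (SE, limma adjusted p = 2.1e-05). The largest rises and falls were picked among called probes whose iPS and ES values do not overlap, so non-overlap of these probes follows from the choice.

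A further 6 named genes stood among the 12 largest rises, which ran from 3.86 to 4.80. They were Zfp330, a zinc finger protein, Mcm6, a subunit of the replicative DNA helicase, Rpl29 of the large ribosomal subunit, the mitotic kinase Plk1, the COP9 signalosome subunit Cops8, and Mak16, which in yeast acts in ribosome biogenesis. The remaining 3 of the 12 probes carry no gene name. The Cops8 probe had 8.41, 8.57 and 8.50 in iPS cells, against 4.60, 4.13 and 4.24 in ES cells, with 1 of 3 ES arrays detected. The Plk1 probe had 8.73, 9.23 and 8.79 in iPS cells, against 4.84, 4.65 and 4.66 in ES cells. Neither group overlapped the other for these probes, as their choice required. Cops8, Plk1, Olig1 and Fgf5 each have 1 probe on the array, so no second probe could be read for them. Fgf8 has 2 probes, of which 1 was tested.

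**Figure D1:**
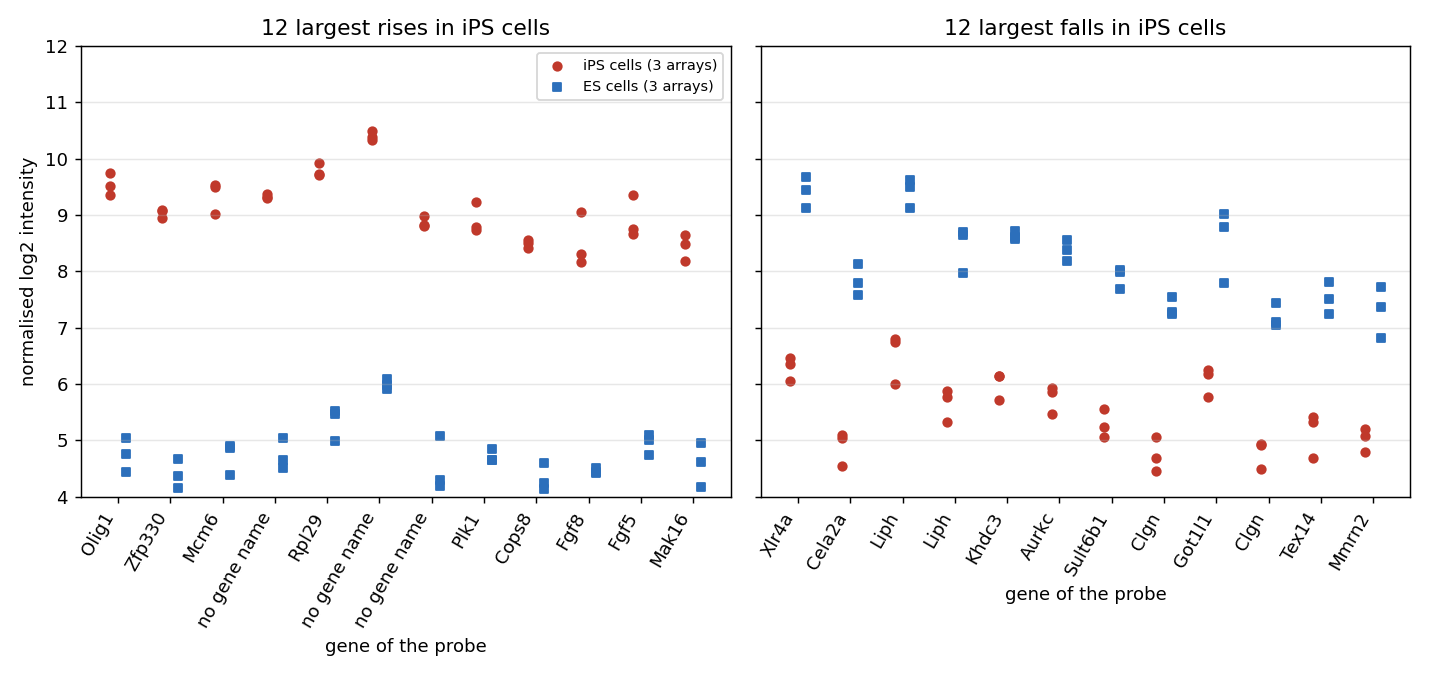
Normalised log2 intensity (vertical axis) of the 12 largest rises (left) and the 12 largest falls (right) in iPS cells, 1 point per array, iPS arrays as circles left of ES arrays as squares. The probes were picked among those whose iPS and ES values do not overlap. Most of the ES values on the left lie near 4 to 5, close to the lower end of the scale.

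Several of these large rises belonged to 1 probe of a gene and not to its other probes. Mcm6 rose by 4.64 at 1 probe (limma adjusted p = 5.7e-06), while its other tested probes differed by 0.04 and -0.16 (adjusted p = 0.88 and 0.58). Zfp330 rose by 4.64 at 1 probe (limma adjusted p = 2.9e-06) and fell by 0.91 at the other (adjusted p = 0.004). Mak16 rose by 3.86 at 1 probe (limma adjusted p = 3.1e-05), with -0.37 (adjusted p = 0.16) and a fall of -0.67 (adjusted p = 0.013) at the others. Both Rpl29 probes were higher, but by 4.45 and 1.05. The direction of Mcm6, Zfp330 and Mak16 as genes is therefore uncertain. Of the 67 probes at least 4-fold higher in iPS cells, 22 belonged to a gene with another tested probe, and for 10 of these 22 no other probe was called higher. Among the 22 probes at least 4-fold lower, 11 had another tested probe, and for 1 of the 11 no other probe was called lower. In all, 12 genes had a 4-fold probe and another tested probe with a different call: Fgfr1op2, Mak16, Man2b1, Mcm6, Ndufb10, Necap2, Pde4dip, Rbbp4, Rps13, Supt16, Wdr82 and Zfp330.

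**Figure D2:**
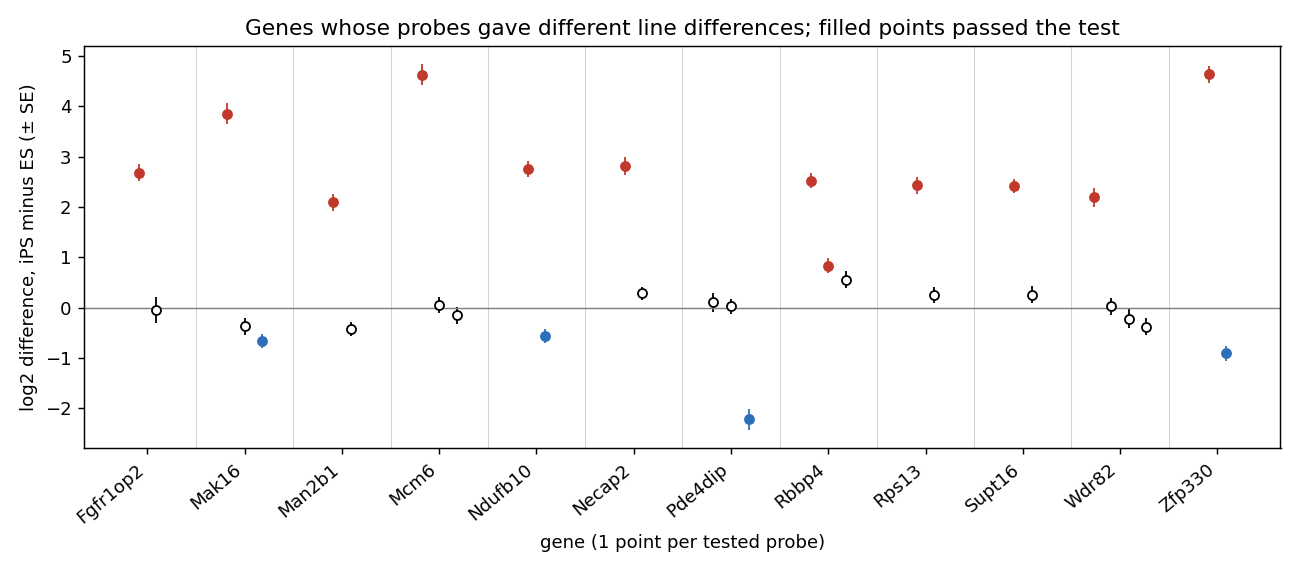
Log2 difference, iPS minus ES, with its standard error (vertical axis) for each tested probe of the 12 genes whose probes gave different calls. For 11 of the 12 genes a single probe lies above 2 while the rest lie between -0.91 and 0.83, and Pde4dip has a single low probe at -2.22.

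The largest fall was that of Xlr4a, an X-linked gene of the lymphocyte-regulated Xlr family. It had 6.05, 6.35 and 6.46 in iPS cells, against 9.67, 9.13 and 9.44 in ES cells, a difference of -3.13 ± 0.18 (SE, n = 3 each, limma adjusted p = 3.2e-05). Khdc3, a maternal-effect gene of the oocyte and early embryo, had 5.71, 6.15 and 6.14 in iPS cells, against 8.72, 8.58 and 8.60 in ES cells. Aurkc, the Aurora kinase of meiosis, had 5.46, 5.92 and 5.86 in iPS cells, against 8.55, 8.19 and 8.37 in ES cells. The groups did not overlap for any of these genes, as the choice of probes required. Khdc3 fell by 2.63 (limma adjusted p = 3.9e-05) and Aurkc by 2.62 (limma adjusted p = 5.1e-05), and the second Aurkc probe was lower too. The 12 largest falls, from -3.13 to -2.28, covered 10 genes. The others were the elastase Cela2a, the lipase Liph, the sulfotransferase Sult6b1, the testis chaperone Clgn, Got1l1, a relative of a glutamate-oxaloacetate transaminase, Tex14, which acts at the bridges between germ cells, and Mmrn2, an extracellular matrix protein of endothelium. Liph and Clgn entered with both of their probes. Xlr4a, Cela2a, Khdc3, Got1l1, Tex14 and Mmrn2 each have 1 probe on the array.

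Most genes of the naive pluripotency network did not pass the test. Of its 16 genes, all tested, 0 were higher and 2 lower in iPS cells, and 14 did not pass, where 9.12% of all tested probes were called lower, with a median of -0.12 against 0.02 over all tested probes. The median turned to 0.15 with median scaling, where 0 of the 16 genes passed. Each gene was read at its brightest probe. Zfp42 (Rex1), a marker of the naive state, had 8.97, 9.36 and 9.61 in iPS cells, against 10.77, 10.86 and 10.81 in ES cells. It fell by 1.50 ± 0.18 (SE, limma adjusted p = 0.001). Klf2, a naive-state factor, had 10.48, 10.64 and 10.76 in iPS cells, against 11.54, 11.30 and 11.76 in ES cells, and fell by 0.90 ± 0.17 (SE, limma adjusted p = 0.0078). Every iPS value was below every ES value for both, as for 99.9% of probes called lower. Both genes lie on chromosome 8, whose tested probes had a median of -0.41 (described further on).

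The other 14 genes missed the threshold. Lin28a, an RNA-binding protein of pluripotent cells, differed by 0.65 ± 0.21 (SE, limma adjusted p = 0.066) and Tdgf1, a Nodal co-receptor, by -0.43 ± 0.155 (SE, adjusted p = 0.089), and neither overlapped between the groups at the probe read, as was so for 37.0% of all tested probes. Sox2 differed by -0.30 ± 0.26, Klf4 by -0.09 ± 0.30 and Tbx3 by 0.06 ± 0.22 (SE). Esrrb, with 10.85, 11.39 and 11.22 in iPS cells, against 11.59, 11.63 and 11.73 in ES cells, did not overlap but missed the threshold (limma adjusted p = 0.076). Among the other probes of the network, 1 of 3 Sall4 probes was 1.55 higher in iPS cells (limma adjusted p = 0.00051), while the brightest Sall4 probe differed by 0.35 (adjusted p = 0.1). Sall4 is a transcription factor of pluripotent cells. All 3 of its tested probes were above 0, so they differ in size and call but not in direction. With array weights 2 genes of the network were called higher and 4 lower.

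Several genes of the primed epiblast and primitive streak were higher in iPS cells. From the early lineage list of 12 genes, 11 had a probe and 5 were tested, of which 3 were higher, 0 lower and 2 did not pass, where 8.65% of all tested probes were called higher. The median was 1.11, and 0.68 without the iPS 1 array. Eomes, a T-box factor of the streak, had 6.76, 6.16 and 6.48 in iPS cells, against 4.64, 4.22 and 4.91 in ES cells, and rose by 1.88 ± 0.22 (SE, limma adjusted p = 0.00091). Gata6, a factor of primitive endoderm and mesendoderm, had 6.54, 5.13 and 5.35 in iPS cells, against 4.52, 4.50 and 4.67 in ES cells, where it was not detected on any array. It was at least 1.77-fold higher (limma adjusted p = 0.043), and its difference without the iPS 1 array was 0.68 (adjusted p = 0.039). The third gene called was Fgf5. Otx2 and Nes differed by 0.37 ± 0.27 and 0.30 ± 0.24 (SE) and did not pass. Gata4, Pax6 and Mesp1 were not detected on any of the 6 arrays, Sox17 was detected on 1 iPS array and no ES array, and Mixl1 and Foxa2 were each detected on 2 iPS arrays and no ES array, too few to be tested. With median scaling, without the low-signal filter, with passage as a covariate, or without the iPS 3 array or any one ES array, 2 of the 5 genes were called higher. Gata6, not detected in ES cells, entered the test through the iPS arrays alone. Among genes detected on all 6 arrays only 1 remained, and 0 were called.

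A longer list of epiblast and streak genes was drawn up after these values had been seen, so its count describes and does not test. Of 17 genes, 15 were tested, 11 were higher, 0 were lower and 4 did not pass, with a median of 1.54, where 8.65% of all tested probes were called higher. Lhx1, a homeobox factor of the anterior streak, had 8.51, 6.78 and 7.06 in iPS cells, against 4.21, 4.21 and 4.17 in ES cells. It was at least 6.07-fold higher (limma adjusted p = 0.00091) although it lies on chromosome 11, whose median was -0.37. Gsc, a homeobox factor of the organiser, had 8.64, 7.32 and 7.36 in iPS cells, against 4.38, 5.07 and 4.38 in ES cells, with 1 of 3 ES arrays detected. Nodal, the TGF-beta family ligand that maintains the epiblast, had 9.78, 9.72 and 9.69 in iPS cells, against 7.66, 8.70 and 8.21 in ES cells. All iPS values lay above all ES values for these genes, as for 100% of probes called higher. The iPS 1 array was the highest of the 6 for each.

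The DNA methyltransferase Dnmt3b, high in the epiblast, had 13.03, 12.93 and 13.01 in iPS cells, against 11.90, 11.95 and 11.95 in ES cells. It rose by 1.05 ± 0.13 (SE, limma adjusted p = 0.0012), with 1.64 at its second probe. The POU factor Pou3f1 (Oct6) rose by 1.38 ± 0.15 (SE, limma adjusted p = 0.00062), the Wnt target Sp5 by 2.81 ± 0.31 (adjusted p = 0.00065), and the homeobox factor Evx1, not detected in ES cells, was at least 3.51-fold higher (adjusted p = 0.00014). Fst, an activin antagonist, rose by 2.01, Zic2 by 1.64, and Cer1, a Nodal antagonist not detected in ES cells, was at least 1.61-fold higher. The other members did not pass. The Nodal antagonists Lefty1 and Lefty2 differed by 0.19 ± 0.18 and 0.12 ± 0.15, the Nodal effector Foxh1 by 0.17 ± 0.22 and Hhex by -0.05 ± 0.19 (SE). Without the iPS 1 array 11 of the 15 were again called higher, with a median of 1.52. With median scaling 7 were called. Genes not detected in ES cells, such as Fgf8, Lhx1, Evx1 and Cer1, entered the test through the iPS arrays alone. Among genes detected on all 6 arrays 9 remained, with 5 higher, 0 lower and a median of 1.05.

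**Figure D3:**
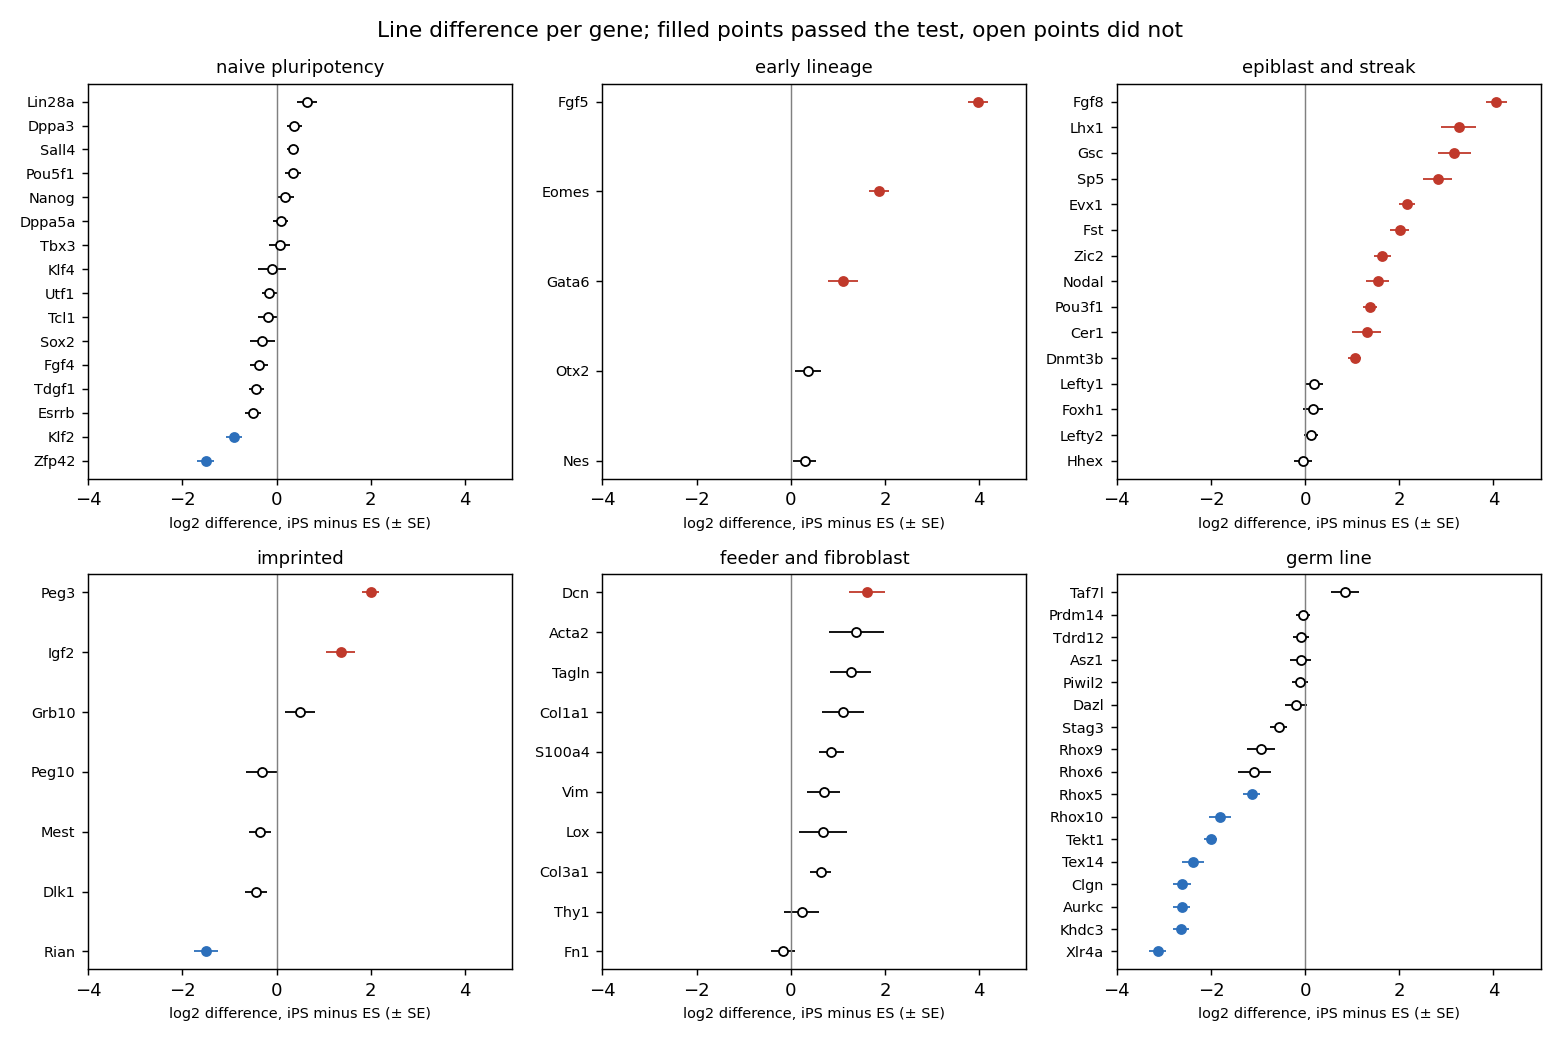
Log2 difference, iPS minus ES, with its standard error (horizontal axis) for each tested gene of 6 lists, at the gene's brightest probe. Filled points passed the limma test. Most naive pluripotency genes are open and lie near 0, 11 of 15 epiblast and streak genes are filled and to the right, and 8 of 17 germ line genes are filled and to the left.

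Fibroblast genes moved with the iPS 1 array. Of 12 feeder and fibroblast genes, 10 were tested, 1 was higher, 0 were lower and 9 did not pass, so the share called higher was near the 8.65% of all tested probes. The median was 0.78, against 0.02 over all tested probes, and it was 0.45 without the iPS 1 array or 0.39 with passage as a covariate. The count called higher was not stable. It was 0 with median scaling or passage, 3 with the replicate block, and 4 with array weights or all groups in the fit, with 0 lower in each. The gene called at first was Dcn, the matrix proteoglycan decorin. It had 9.87, 8.27 and 8.30 in iPS cells, against 7.36, 7.10 and 7.11 in ES cells, and 11.82 on average in fibroblasts. It was 1.62 ± 0.38 higher (SE, limma adjusted p = 0.02), and 1.09 higher without the iPS 1 array (adjusted p = 0.008). Lox, which cross-links collagen, had 9.22, 6.99 and 7.01 in iPS cells, against 6.93, 7.26 and 6.98 in ES cells, so only the iPS 1 array stood out. Of the 12 genes, 7 were detected on all 6 arrays. Col1a2, which averaged 10.16 in fibroblasts, was detected on none of the 6. Postn was not detected there at any of its 3 probes, of which the one read was on no fibroblast array either and another was on all 3, with an average of 5.16. The summed linear intensity of the 12 genes was 2203 to 7318 on the iPS arrays, against 1454 to 2420 on the ES arrays. In bulk RNA, more feeder cells and more RNA per feeder cell cannot be told apart. Mmp3, a matrix metalloproteinase that averaged 11.54 in fibroblasts and was singled out after its values were seen, had 10.52, 9.44 and 9.65 in iPS cells, against 7.77, 7.11 and 7.49 in ES cells. It rose by 2.42 ± 0.29 (SE, limma adjusted p = 0.00098) and by 2.09 without the iPS 1 array. The part of feeder RNA in the epiblast and streak genes was not tested. The fibroblast arrays hold tail tip cells of mice aged 8 weeks and not the embryonic feeders, so a gene absent there may still be made by feeders. Of the 11 called higher, 9 were detected on no fibroblast array, and Fst and Dnmt3b were detected on all 3, with averages of 6.33 and 5.63. Of the 3 early lineage genes called higher, Fgf5 and Gata6 were detected on all 3 fibroblast arrays, with averages of 5.87 and 5.32, and Eomes on none.

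Imprinted genes, of which only the copy from one parent is expressed, moved in both directions. Of 12 genes, 9 had a probe and 7 were tested, with 2 higher, 1 lower and 4 not called, where 8.65% of all tested probes were called higher and 9.12% lower. They had a median of -0.32, which was -0.11 with median scaling and 0.06 without the ES 1 array. Peg3, a paternally expressed zinc finger gene, had 9.80, 9.56 and 9.83 in iPS cells, against 7.86, 7.41 and 7.93 in ES cells, and rose by 2.00 ± 0.18 (SE, limma adjusted p = 0.00027). Its other tested probe rose by 1.46. Igf2, a paternally expressed growth factor, had 10.77, 9.62 and 9.69 in iPS cells, against 8.80, 8.28 and 8.89 in ES cells. It rose by 1.37 ± 0.31 (SE, limma adjusted p = 0.017), and by 1.00 without the iPS 1 array. Rian, a maternally expressed non-coding RNA of the Dlk1-Dio3 domain, had 5.64, 4.95 and 5.01 in iPS cells, against 7.16, 6.29 and 6.63 in ES cells, and fell by 1.49 ± 0.26 (SE, limma adjusted p = 0.0059). The iPS and ES values did not overlap for any of these 3 genes, as for 37% of all tested probes. Among called probes this held for 100% of those higher and 99.9% of those lower. Meg3 of the same domain was not detected on any of the 6 arrays by any of its probes, nor was Zim1, and Dlk1 differed by -0.43 ± 0.23 (SE, adjusted p = 0.23). Peg10, Mest and Grb10 did not pass. With median scaling 1 gene was called higher and 0 lower.

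Germ line genes, which act in germ cells or the early embryo, stood among the largest falls. The list was drawn up after the falls had been seen and holds 5 of their genes, so its count is a description. Of 21 genes, 17 were tested, 0 were higher, 8 were lower and 9 did not pass, where 9.12% of all tested probes were called lower. The median was -1.07, and it was -0.71 without the iPS 1 array, -0.69 with median scaling and -0.58 with passage as a covariate. Of the 8, Clgn, Tekt1 and Tex14 lie on chromosomes 8 and 11. Tekt1, a tektin of cilia and sperm tails, had 5.42, 5.56 and 5.50 in iPS cells, against 7.52, 7.55 and 7.41 in ES cells. Rhox5 and Rhox10, homeobox genes of an X-linked cluster, were also lower. Rhox5 had 9.97, 10.43 and 10.46 in iPS cells, against 11.53, 11.41 and 11.32 in ES cells, and fell by 1.14 ± 0.17 (SE, limma adjusted p = 0.0032). Rhox10 was not detected in iPS cells and was at least 2.68-fold lower there (limma adjusted p = 0.0016). Rhox6 and Rhox9 differed by -1.07 ± 0.34 and -0.94 ± 0.30 (SE) and missed the threshold. Dazl, Piwil2 and Prdm14, which act in germ cell development, differed by -0.19, -0.11 and -0.05 and did not pass. Ddx4, Sycp3, Mael and Hormad1 were not detected on any of the 6 arrays. Rhox10 entered the test through the ES arrays alone. Among genes of the list detected on all 6 arrays 12 remained, with 0 higher, 6 lower and a median of -1.04.

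A further 2 genes were singled out after their values were seen. Pecam1, an adhesion molecule of endothelium and of mouse ES cells, had 4.45, 5.41 and 4.92 in iPS cells, against 6.81, 7.29 and 6.84 in ES cells. It fell by 2.05 ± 0.25 (SE, limma adjusted p = 0.0011), with a fall of 1.58 at a second probe. Zscan4c, a marker of a transient early-embryo-like state, had 6.83, 7.24 and 7.24 in iPS cells, against 4.63, 5.41 and 4.51 in ES cells, and rose by 2.26 ± 0.25 (SE, limma adjusted p = 0.00066). The Y-linked gene Eif2s3y had 8.19, 8.18 and 8.40 in iPS cells, against 8.93, 8.11 and 8.44 in ES cells, so a Y-linked transcript was present in both lines at overlapping levels.

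The differences were not spread evenly over the chromosomes. For 13389 tested probes the gene's chromosome was taken from the RefSeq table of GRCm38.p6. The median difference was -0.41 over 751 probes of chromosome 8 and -0.37 over 1182 probes of chromosome 11, against -0.01 to 0.14 on each of the other 18 chromosomes. On chromosome 8, 80.6% of probes were below 0 and 236 were called lower against 22 higher. On chromosome 11, 82.3% of probes were below 0 and 327 were called lower against 27 higher. Together 29.1% of the probes of these 2 chromosomes were called lower (563 of 1933), against 6.18% elsewhere (708 of 11456).

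**Figure D4:**
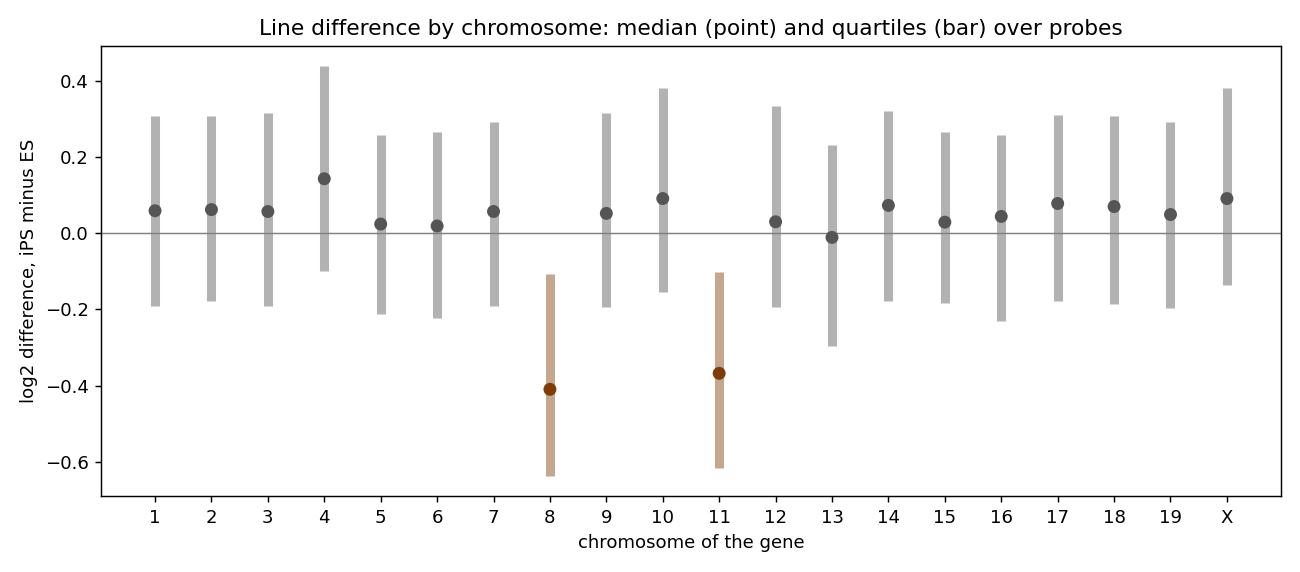
Log2 difference, iPS minus ES (vertical axis), by chromosome of the gene (horizontal axis), with the median over tested probes as a point and the quartiles as a bar. The bars of chromosomes 8 and 11 lie wholly below 0, with medians of -0.41 and -0.37, and the medians of the other 18 chromosomes lie between -0.01 and 0.14.

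This shift was present on each array. Relative to the mean of the 6 arrays, the median over chromosome 8 was -0.24, -0.17 and -0.18 on the iPS arrays, against 0.18, 0.20 and 0.22 on the ES arrays. Over chromosome 11 it was -0.20, -0.16 and -0.18 on the iPS arrays, against 0.16, 0.22 and 0.19 on the ES arrays. The groups did not overlap on either chromosome, and the distance between them was several times the spread within a group. They did not overlap on chromosomes 2, 3, 4, 9, 10, 17 and X either, so non-overlap was not particular to chromosomes 8 and 11. The distance was smaller there. Group means were 0.082 in iPS and -0.087 in ES cells on chromosome 4, against -0.197 and 0.199 on chromosome 8. When genes were ordered along each chromosome and cut into 4 segments of equal probe number, all 8 segments of chromosomes 8 and 11 had medians between -0.49 and -0.35. Elsewhere the first segment of chromosome 4 stood apart. Its 229 probes had a median of 0.43, with 77 called higher and 2 lower, and the remaining 71 segments ran from -0.14 to 0.20. On this segment the arrays read 0.15, 0.23 and 0.27 for iPS cells, against -0.20, -0.23 and -0.26 for ES cells.

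The scaling moved these medians together with all others. Relative to the median of all tested probes, chromosome 8 stood at -0.43, chromosome 11 at -0.39 and the first segment of chromosome 4 at 0.41. With median scaling the same values were -0.36, -0.32 and 0.42. The shift was smaller among dim probes, where chromosome 8 had a median of -0.19 and chromosome 11 of -0.25, than among bright ones, where they had -0.49 and -0.40. Without the probes of chromosomes 8 and 11, 2020 probes were called, 1223 higher and 797 lower. DNA copy number was not measured.

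**Figure D5:**
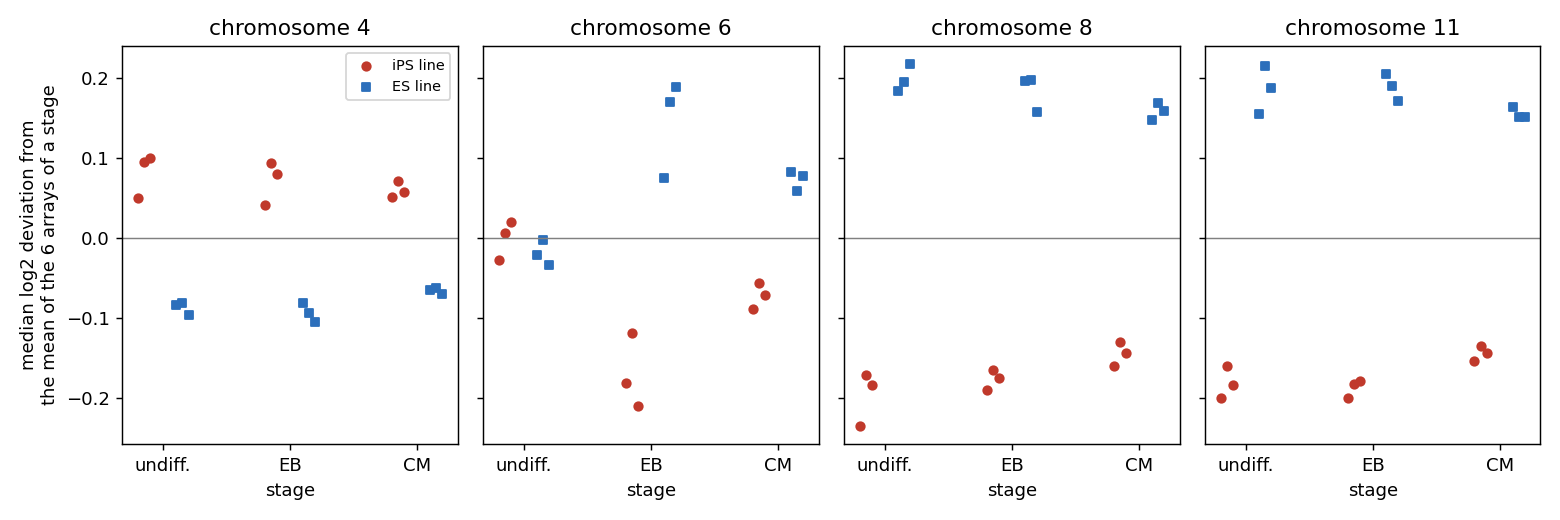
Median log2 deviation of a chromosome's tested probes from the mean of the 6 arrays of a stage (vertical axis), 1 point per array, for chromosomes 4, 6, 8 and 11 at the 3 stages (horizontal axis), iPS line as circles left of ES line as squares. On chromosomes 8 and 11 all iPS points lie below -0.1 and all ES points above 0.1 at each stage, while on chromosome 6 the lines overlap in undifferentiated cells and part in EB and CM.

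The same probes were read at the other stages in arrays not used above. The EB comparison called 3671 of the 15520 probes (23.7%), 1784 higher and 1887 lower. The CM comparison called 4716 (30.4%), 2324 higher and 2392 lower. Of the 1342 probes higher in undifferentiated iPS cells, 616 (45.9%) were also higher in iPS EB and 440 (32.8%) in iPS CM, where 11.5% and 15% of all tested probes were called higher. Of the 1415 lower probes, 698 (49.3%) were also lower in iPS EB and 452 (31.9%) in iPS CM, where 12.2% and 15.4% of all were called lower. The difference recurred at both later stages for 325 of the higher and 290 of the lower probes.

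Large differences recurred in EB and split in CM. All 12 of the largest rises and all 12 of the largest falls were called in the same direction in EB, and 9 of the rises but 1 of the falls, Xlr4a, in CM. Cops8 differed by 4.17 in undifferentiated cells, 4.24 in EB and 4.31 in CM, and Zfp330 by 4.64, 4.87 and 4.56 at the probe named above. Olig1 differed by 4.80 and 4.60 in undifferentiated cells and EB but by -0.18 in CM, and the change in the difference was 4.97 (limma adjusted p = 5.1e-08). Fgf8 gave 4.06, 2.97 and -0.24 in the same order, and Fgf5 3.98, 3.21 and -0.50. Olig1 and Fgf8 were not called in CM, where Fgf8 was not detected and Olig1 was detected on 1 array, of ES CM. Fgf5 was called the other way there, lower in iPS CM (limma adjusted p = 0.02), with averages of 4.65 in iPS CM and 5.15 in ES CM. Of the 22 probes at least 4-fold lower in undifferentiated iPS cells, 15 (68.2%) were detected on no CM array. The same held for 18 of the 67 at least 4-fold higher (26.9%) and 13% of all tested probes. For such probes a line difference could not be read in CM.

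The line difference itself changed between undifferentiated cells and EB at 696 probes (4.48%) and between undifferentiated cells and CM at 2967 probes (19.1%), by limma's test of that change. Stages of a line share replicate numbers and passages. With the culture as a block 518 and 3107 probes passed, and without the iPS 1 array 475 and 2628. Zfp42 differed by -1.50 in undifferentiated cells and by -3.72 in EB, a change of 2.23 (limma adjusted p = 0.046, and 0.057 without the iPS 1 array). Rian differed by -1.49 and -3.00, a change of 1.50 (adjusted p = 0.016). Dcn differed by 1.62 and -1.56, a change of 3.18 (adjusted p = 0.0046). Mmp3 differed by 2.42 and 0.02, a change of 2.39 (adjusted p = 0.0019).

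The chromosome 8 median was -0.37 in EB and -0.31 in CM, and the chromosome 11 median was -0.38 in EB and -0.32 in CM. The first segment of chromosome 4 had 0.54 in EB and 0.52 in CM. Chromosome 6 differed from these. Its median was 0.02 in undifferentiated cells, where the iPS arrays read -0.03, 0.01 and 0.02, against -0.02, -0.002 and -0.03 on the ES arrays. Its EB median was -0.34, with 229 of 641 probes called lower, and in CM -0.13. Its second segment had 0.13 in undifferentiated cells, -0.73 in EB and -0.53 in CM. Chromosome 12 also moved, less and upwards, with medians of 0.03 in undifferentiated cells, 0.20 in EB and 0.10 in CM. The changes of the chromosome 6 and chromosome 12 medians between stages were not tested.

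Detection in fibroblasts was read for the called probes beside all tested probes, of which 79.5% were detected on all 3 fibroblast arrays and 11.8% on none. Of the 471 probes at least 2-fold higher in iPS cells, 351 (74.5%) were detected on all 3 fibroblast arrays and 94 (20%) on none. Of the 357 probes at least 2-fold lower, 192 (53.8%) were detected on all 3 and 141 (39.5%) on none. Presence in 1 line against absence in the other was counted too. Of the 471 probes at least 2-fold higher, 81 were detected on all iPS and no ES arrays, against 329 of all 15520 tested probes. Of the 357 at least 2-fold lower, 39 were detected on all ES and no iPS arrays, against 87 of all tested probes. Probes of both kinds passed the detection filter through 1 line alone. Their excess among probes picked for being higher in that line follows in large part from this choice, so these counts only describe.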

How the data were processed

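Per the file headers, the authors deposited the mean signal intensity of every probe on every array together with its detection p-value. The intensity was neither normalised nor background subtracted, and its software was not given in the labels. A second deposited table holds normalised intensity. Its rows matched the first by value for all 45281 probes (largest log2 distance 6.87e-10), but only 3 pairs carried the same identifier. Under the identifiers of the first table, 25 of 32 naive pluripotency probes were highest in iPS or ES cells, against 7 of 32 under those of the second, so the first were used. Per the labels' protocols, RNA was extracted with TRIzol, and biotin-labelled cRNA was made with an Ambion MessageAmp kit.

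Probe genes came from GEO's platform annotation, which can be old: 34885 probes had 1 gene, 18 several and 10378 none. Entrez gene IDs of 34807 were found in RefSeq (GRCm38.p6), used for names and for the order of genes along chromosomes only. Of 15520 tested probes 2108 have no gene name.

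limma 3.58.1 in R 4.3.3 corrected the background over all 21 arrays (neqc, normexp with negative controls inferred from the detection p, offset 16), normalised by quantiles and took log2. The offset makes log2 differences of dim probes too small. A linear model on the 6 arrays alone (lmFit and eBayes, 4 residual degrees of freedom) gave Benjamini-Hochberg adjusted p-values over all tested probes, with calls below 0.05. Only these 6 arrays entered because the residual SD differed between groups (0.23 in iPS, 0.30 in ES, 0.16 in ES CM). EB and CM were fitted alike on the same probes, and changes of the line difference on 12 arrays. Where a probe was detected on no array of 1 group, a lower bound of the fold is given: the mean of the brighter group over that of the dimmer group, with each dim array set to its lowest detected value if that was higher than the probe's own.

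Named probes were the 12 largest rises and falls among called probes whose groups do not overlap, plus up to 8 members per gene list in list order; further members are named after their values were seen. Members and lists were chosen with earlier results of these data known, and the lists named as drawn up later were chosen after these values. Lists were naive pluripotency, early lineage, imprinted, feeder and fibroblast, cardiomyocyte (2 of 5 with a probe tested, Actc1 at least 1.16-fold higher and Myh6 -0.67), endoderm and, later, epiblast and streak, germ line and sex-linked genes (Xist, Eif2s3y and Uty, 0 of 3 called). Several listed symbols (T, Tnnt2, Snrpn, H19, Mirg) have no probe in the annotation used.

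Per the series' design text the cultures are independent biological replicates. Replicate numbers do not pair the lines: deviations of same-numbered arrays correlated at 0.02, 0.23 and -0.06. Within a line the labels give same-numbered cultures of the 3 stages the same passage. Deviations of these arrays from their group means correlated between -0.203 and 0.245 with those of undifferentiated cells, over 0.1 in 4 of 12 pairs. A fit with the culture as a block was added after the data were seen. The number of arrays limits precision. Simulated data were built on this comparison over 15520 probes, with 67, 67 and 66 probes given log2 changes of 0.5, 1 and 2. Of these, 1.49%, 38.8% and 90.9% were recovered, with 2 false calls among 89. Far fewer probes were changed there than the 17.8% called in the data. The adjusted threshold depends on that share, so these rates need not hold for the real comparison. Alternatives covered background, scaling, filter, the arrays fitted, variance prior, array weights, passage, a replicate block, the authors' table and each array left out.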

Additional observations from a re-analysis of the deposited data

Results flagged for a closer look

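The following results were singled out because the line difference, iPS minus ES, was not the same in undifferentiated cells and at a later stage by limma's test of that change (adjusted p below 0.05). The change was called at 696 probes against EB and at 2967 probes against CM. Among the genes read, it was called at 16 probes, given here as undifferentiated minus EB. With the culture as a block 11 of the 16 stayed called, and the 5 that did not were the probes of Aurkc, Clgn, Dazl, Dlk1 and Tdgf1. Without the iPS 1 array 12 stayed called, and those of Clgn, Dazl, Tdgf1 and Zfp42 did not.

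Zscan4c changed by 4.62, since it was 2.26 higher in undifferentiated iPS cells and at -2.37 in iPS EB, where its own difference was not called. Dcn changed by 3.18 and Col1a1, the collagen chain, by 2.81 (1.10 in undifferentiated cells, not called, and -1.71 in EB). Mmp3 changed by 2.39. Feeder and fibroblast genes as a group were highest on the iPS 1 array, and their part in these changes was not tested.

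Of the germ line genes, Dazl changed by 3.07 (-0.19 and -3.26), Rhox9 by 3.06 (-0.94 and -3.99), Taf7l by 2.14 (0.85 and -1.29), Rhox5 by 1.79 (-1.14 and -2.93), Xlr4a by 1.69 (-3.13 and -4.82) and Aurkc by 1.13 (-2.62 and -3.75). Each was lower relative to ES in EB than in undifferentiated cells. Clgn ran the other way at its second probe, by -0.94 (-2.41 and -1.47).

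Zfp42 changed by 2.23 (-1.50 and -3.72) and Rian by 1.50 (-1.49 and -3.00). Hhex, a homeobox factor of endoderm, changed by -1.64 (-0.05 and 1.59), Dlk1, the imprinted Notch ligand-like gene, by -1.19 (-0.43 and 0.76), and Tdgf1 (Cripto), a Nodal co-receptor, by -0.85 (-0.43 and 0.42).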

How the results depend on the processing

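Counts of called probes depended on scaling and on the arrays. The 2757 probes became 164 with median scaling (137 higher, 27 lower), 1739 without the low-signal filter, 4734 with array weights and 814 with passage as a covariate. Leaving out 1 array gave 1297 to 3330. The 828 probes called at 2-fold or more became 164 with median scaling and 511 among probes detected on all 6 arrays, and 750 to 916 with 1 array left out. The replicate block gave 2598 and 845 and moved neither count by over 1.5 times. The chromosome 8 median (-0.41) became -0.18 with median scaling, -0.36 with passage as a covariate, -0.37 without background correction and with the authors' normalised table (-0.365 in each), -0.46 among probes detected on all 6 arrays, and -0.41 to -0.39 with 1 array left out. That of chromosome 11 became -0.14 (-0.145) with median scaling, -0.34 without background correction and with the authors' table, -0.40 among probes detected on all 6 arrays, and -0.39 to -0.35. That of the first of 4 segments of chromosome 4 became 0.59 with median scaling and 0.41 to 0.48. The EB count became 2447 (1651 higher, 796 lower) and the CM count 2334 with median scaling. The changes of the line difference became 41 against EB and 217 against CM with median scaling, and 1262 against EB with all groups in the fit. With the culture as a replicate block they became 518 against EB and 3107 against CM, and without the iPS 1 array 475 and 2628, both settings chosen after seeing the data. Detected probes differed by 600 to 2288 with 1 array left out. The cause of these moves was not tested. None of the chromosome medians changed sign, but the balance of calls did. It was 1342 higher against 1415 lower at first, and more probes were higher with median scaling (137 against 27), array weights (2410 against 2324), passage (419 against 395), and without the iPS 1 (873 against 847) or iPS 2 array (720 against 677). At 2-fold or more, 471 higher against 357 lower became 243 against 268 among probes detected on all 6 arrays. Of 128 probes read by name, 62 were called, and 41 of these 62 stayed called under every planned setting in which they were tested. The probes not called were not counted in this way.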
